A study of Mus musculus with 8 samples.

Results

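The genes described here are 10 components and outputs of the circadian clock, Clock, Npas2, Per1, Per2, Per3, Cry1, Ciart, Nr1d1, Nr1d2 and Dbp. They were found by gene name, 1 row each, among the 55416 genes counted in the cerebral cortex of heterozygous AGO2_L192P/+ mice (L192P) and wild-type mice (WT). Each genotype had 4 libraries. Argonaute 2, the product of Ago2, holds a miRNA and represses mRNAs that pair with it, and the L192P allele was introduced by Cas9 editing of C57BL/6JUke embryos. The age and sex of the mice, the number of founders behind the line, the lighting schedule and the hour of tissue collection are not given in the sources used here.

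The clock runs in nearly every cell as a loop of transcription and repression. CLOCK, or its paralog NPAS2, pairs with BMAL1 on E-box motifs and drives the Per, Cry, Nr1d and Dbp genes and Ciart. PER and CRY proteins and CIART then block that activity, the REV-ERB proteins encoded by Nr1d1 and Nr1d2 repress Arntl (the gene of BMAL1), Clock, Npas2 and Cry1, and DBP activates D-box motifs. In mouse tissues, transcripts of Dbp, Nr1d1, Nr1d2, Ciart and the Per genes peak between the later day and early night, and those of Arntl, Npas2, Clock and Cry1 peak in the later night or morning. Hence, libraries collected at different hours differ in these transcripts, and they were examined both for the genotype and for the spread between libraries.

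The promoters are shown because the motifs that tie these genes into 1 loop can be read in them. The 500 bases before the start of each canonical transcript were read from GRCm39 with GENCODE M39. They were searched on both strands for the E-box CACGTG, the E′-box CACGTT, the D-box TTATGTAA or TTACGTAA, the ROR/REV-ERB element (an AGGTCA with an A- and T-rich flank) and the cyclic AMP element TGACGTCA. The E-box reads the same on both strands, and the listed motifs do not overlap each other here. The E-box was found in 4 of the 10 genes, Per1, Cry1, Nr1d1 and Ciart, and in 9.69% of 21753 protein-coding promoters. The D-box was found in Per2 and, at 2 places, in Per3, against 2.07% of all promoters. The E′-box was found in Cry1, Nr1d1 and Ciart (8.56% of all promoters), and no gene of the set held the ROR/REV-ERB element (0.349%) or the cyclic AMP element (1.96%) in this window. The windows of Clock, Npas2, Nr1d2 and Dbp held none of these letters. The following matches, in capitals, are given 5′ to 3′ on the strand of the gene.
Per1 E-box, chr11:68989238-68989259, plus strand: cttaacgaCACGTGggccctca
Cry1 E-box, chr10:85020965-85020986, minus strand: ccggtggtCACGTGgggtgcat
Nr1d1 E-box, chr11:98666513-98666534, minus strand: tctccaatCACGTGaagctctc
Ciart E-box nearest to the start, chr3:95789571-95789592, minus strand: cagaaccgCACGTGtctgggag
Per2 D-box, chr1:91387156-91387179, minus strand: tgtgcgtcTTATGTAAagagagcg
Per3 distal D-box, chr4:151129312-151129335, minus strand: cccgcgcgTTATGTAAggtactcg
Per3 proximal D-box, chr4:151129265-151129288, minus strand: gcccgcggTTATGTAAcccccgcc
The E-box of Per1 begins 22 bases before the start of its canonical transcript, that of Cry1 29 bases before it and that of Nr1d1 367 bases before it. Ciart was the member with the most E-boxes, 4, of which that shown begins 28 bases before the start. A match describes the sequence and was not tested for binding.

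The libraries held between 20396357 and 43575900 counts, and every one of the 10 genes had between 245 and 5538 counts in each library. All 10 entered the adjusted test. Xist, expressed from the inactive X chromosome, was near 0 in the replicate 1 library of both genotypes (0.93 and 1.82 normalized counts) and lay between 5185 and 7257 in the other 6. The cortical excitatory neuron markers Slc17a7, Tbr1, Neurod6, Cux2, Fezf2, Emx1 and Neurod2 were present in all libraries, with a summed level of 38199 to 42878 normalized counts in L192P and 43496 to 45089 in WT.

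The levels of the 10 genes in WT differed widely. Per kilobase of annotated exon, Nr1d1 was highest, at 826 ± 72.6 normalized counts (SD, n = 4), followed by Dbp at 456 ± 68.5, Nr1d2 at 362 ± 35.7, Npas2 at 222 ± 20.02 and Per1 at 211 ± 30.001. Ciart reached 149 ± 25.1, Clock 125 ± 11.1, Cry1 116 ± 6.44, Per2 96.4 ± 13.3 and Per3 63.9 ± 4.96 normalized counts per kilobase. The exons of all annotated transcripts of a gene were merged for its length, so the order between genes also depends on the annotation. The ranges of the 4 WT libraries overlapped between Dbp and Nr1d2 and between Npas2 and Per1. Those of Ciart overlapped with Clock and Cry1, those of Clock also with Cry1 and Per2, and those of Cry1 also with Per2. Of the 3242 exon bases of Nr1d1, 1711 lie opposite to exons of Thra or Gm31862, and its level is uncertain because no source used here gives the strand option of the read counting. For Clock, 2641 of 17251 exon bases lie opposite to exons of Apc-ps1, Gm7467 or Tmem165, so its level is uncertain too. Shorter overlaps with exons on the opposite strand exist for Per1 (Gm72400), Per3 (Gm69183 and Uts2), Npas2 (Gm53549), Dbp (Sphk2) and Ciart (C920021L13Rik). Per2, Cry1 and Nr1d2 had none.

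The first question was whether the clock genes differ between L192P and WT cortex. None of the 10 passed the threshold, an adjusted p under 0.05 by DESeq2, while 1.36% of 18627 tested genes did. At an unadjusted p under 0.05 there was 1 gene, Npas2, where 9.44% of all tested genes fell under this limit, and 0 of the 10 were also called by edgeR (0.314% of all genes) and limma voom (0.266%). With the replicate number as a block 0 of the 10 were called (4.25% of all genes by DESeq2 and 3.04% by edgeR), and so it was without both replicate 1 libraries (3.46%). The log2 fold change, L192P minus WT, was below 0 for 9 of the 10 genes, with a median of -0.066 against 0.0019 for all tested genes. In a bulk tissue, fewer cells of a type and less RNA per cell cannot be told apart.

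**Figure D1:**
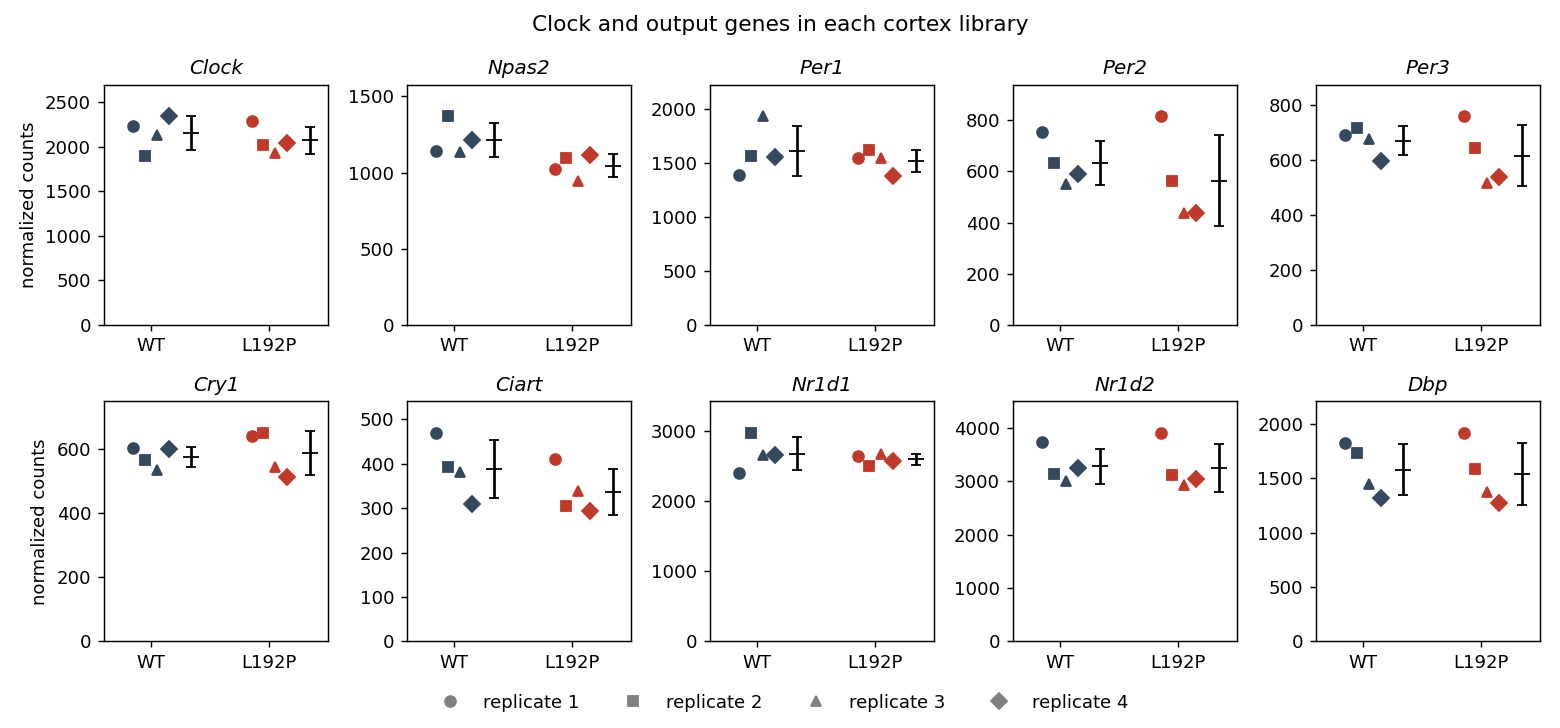
Normalized counts (y axis, from 0) of the 10 clock and output genes in the 4 WT and 4 L192P libraries, with marker shapes for the replicate number and the mean ± SD of each genotype beside the points. The genotypes overlap for all genes except Npas2, and replicate 1 is the highest library of either genotype for Per2, Nr1d2, Dbp and Ciart.

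Among the activators, Npas2 came nearest to a difference. Npas2 (ENSMUSG00000026077, GRCm39 chromosome 1, 39232705 to 39402323, plus strand) had 1026, 1098, 944 and 1114 normalized counts in L192P replicates 1 to 4 and 1143, 1370, 1133 and 1214 in WT replicates 1 to 4. All L192P libraries lay below all WT libraries, as they did in 1 of the 10 genes here and, in either direction, in 5.97% of all tested genes. L192P minus WT, the genotypes differed by -0.22 ± 0.09 (SE) on the log2 scale (95% interval -0.39 to -0.05), and the adjusted p from DESeq2 was 0.269. With the replicate number as a block the adjusted p was 0.0701 by DESeq2 and 0.0516 by edgeR, and over all alternatives it ran from 0.0516 to 0.754.

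Markers of striatal neurons had differences of the same sign as Npas2. The summed level of Drd1, Drd2, Adora2a, Rgs9 and Ppp1r1b was 16376 to 20563 normalized counts in L192P and 20290 to 23961 in WT, so the groups overlapped. All 5 had a log2 fold change below 0 (median -0.21). None of these 5 passed, where 1.36% of all tested genes did. At an unadjusted p under 0.05 (DESeq2) there were 3, where 9.44% of all tested genes fell under this limit. The same sign was seen in all 10 immediate early genes and all 5 oligodendrocyte markers, whereas all 6 vascular and meningeal markers were above 0. L192P replicate 3 was the lowest library for both the striatal sum and Npas2. Of the 7 excitatory neuron markers 0 passed, 2 had an unadjusted p under 0.05 (DESeq2), all 7 were below 0 (median -0.13), and their sums did not overlap. Their part in the Npas2 values was not tested.

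**Figure D2:**
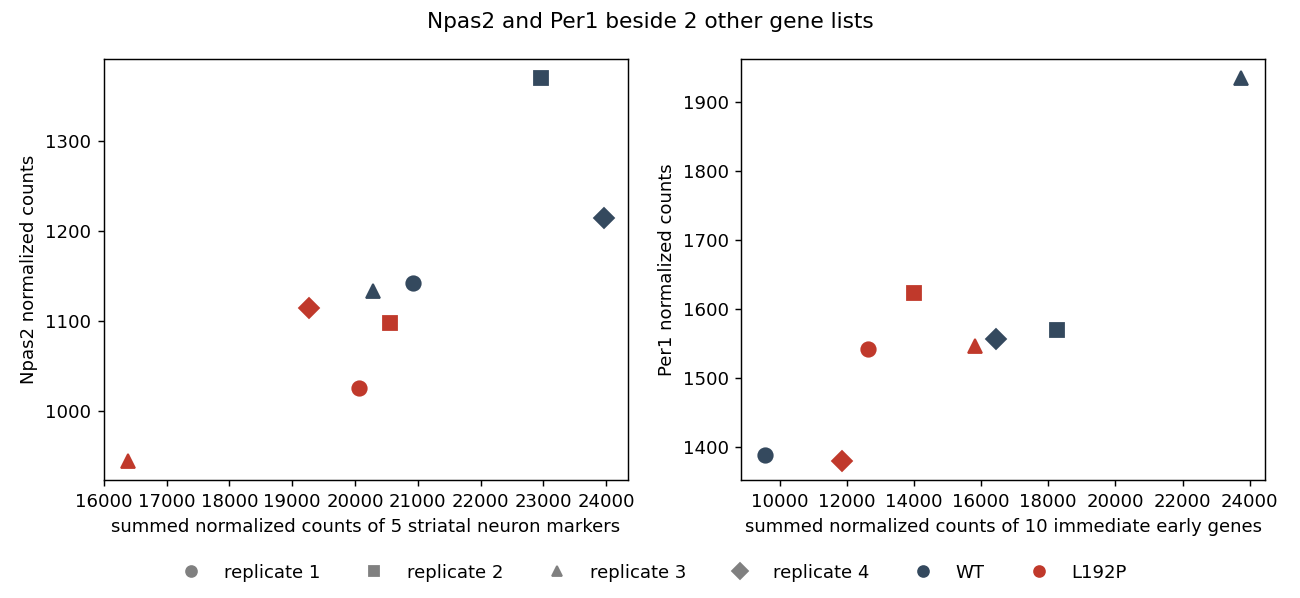
Left, Npas2 (y axis, normalized counts) against the summed normalized counts of 5 striatal neuron markers in each of the 8 libraries, and right, Per1 against the sum of 10 immediate early genes; neither axis starts at 0. L192P libraries lie below WT libraries on the Npas2 axis of the left panel and overlap them on the marker axis, and WT replicate 3 is highest and far right in the right panel.

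Clock itself (ENSMUSG00000029238, chromosome 5, 76342860 to 76452846, minus strand) had 2294, 2024, 1935 and 2041 normalized counts in L192P replicates 1 to 4 and 2233, 1896, 2135 and 2345 in WT. The lowest of all 8 libraries was WT replicate 2 and the highest WT replicate 4, so the groups overlapped fully. The genotypes differed by -0.051 ± 0.08 (SE) on the log2 scale.

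Among the repressors, Per2 had the widest spread between libraries and Nr1d1 the narrowest. Per2 (ENSMUSG00000055866, chromosome 1, 91343700 to 91387069, minus strand) had 817, 562, 437 and 438 normalized counts in L192P replicates 1 to 4 and 754, 635, 553 and 591 in WT. L192P replicates 3 and 4 lay below every WT library, whereas L192P replicate 1 lay above every one. The genotypes differed by -0.17 ± 0.17 (SE) on the log2 scale (95% interval -0.50 to 0.17), and the adjusted p from DESeq2 was 0.883. Without L192P replicate 1 the difference in Per2 was -0.40 (DESeq2 adjusted p = 0.0723), and without L192P replicate 3 it was -0.061 (adjusted p = 0.998).

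Per3 (ENSMUSG00000028957, chromosome 4, 151081373 to 151129140, minus strand) had 760, 644, 518 and 538 normalized counts in L192P and 692, 716, 677 and 596 in WT. The 2 lowest libraries were L192P replicates 3 and 4, as for Per2. The genotypes differed by -0.12 ± 0.12 (SE) on the log2 scale, and the DESeq2 adjusted p was 0.874. Per1 (ENSMUSG00000020893, chromosome 11, 68986035 to 69002300, plus strand), which also responds to neuronal activity and glucocorticoids, did not follow the other Per genes. It had 1542, 1624, 1546 and 1380 normalized counts in L192P and 1390, 1570, 1935 and 1557 in WT, which is a difference of -0.081 ± 0.10 (SE) on the log2 scale. WT replicate 3 was alone at the top, and leaving it out turned the difference to 0.016.

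The same library was also the highest for immediate early genes, which neurons switch on when they fire. Fos, Fosb, Junb, Arc, Egr1, Egr2, Egr4, Nr4a1, Npas4 and Dusp1 summed to 23751 normalized counts in WT replicate 3, to 9570 in WT replicate 1, the lowest, and to between 11865 and 18267 in the other 6 libraries. For Per1 the lowest libraries were L192P replicate 4 and WT replicate 1. None of the 10 immediate early genes passed between the genotypes (median log2 fold change -0.25). At an unadjusted p under 0.05 (DESeq2) there were 2, where 9.44% of all tested genes fell under this limit. The largest differences were those of Arc at -0.47, Nr4a1 at -0.41 and Egr4 at -0.32. Of 8 glucocorticoid-induced genes, Fkbp5, Sgk1, Tsc22d3, Zbtb16, Cdkn1a, Plin4, Errfi1 and Nfkbia, 1 passed, where 1.36% of all tested genes did. It was Cdkn1a, an inhibitor of the cell cycle, which was lower in L192P (log2 fold change -0.30, DESeq2 adjusted p = 0.0163), and the list summed to 8737 to 10070 normalized counts in L192P and 9529 to 11246 in WT. The part of either list in the values of Per1 was not tested.

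Cry1 (ENSMUSG00000020038, chromosome 10, 84967560 to 85021252, minus strand) had 640, 651, 543 and 514 normalized counts in L192P and 603, 567, 534 and 599 in WT. It was the 1 gene of the set with a log2 fold change above 0, at 0.030 ± 0.10 (SE), and that direction turned without L192P replicate 1 or 2 or without WT replicate 3. Ciart (ENSMUSG00000038550, chromosome 3, 95785815 to 95789991, minus strand) had 410, 305, 338 and 293 normalized counts in L192P and 470, 394, 382 and 310 in WT. Each L192P library was below the WT library with its number, by 0.080 to 0.37 on the log2 scale, but the groups overlapped. Ciart differed by -0.21 ± 0.14 (SE) on the log2 scale (DESeq2 adjusted p = 0.732).

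Nr1d1 and Nr1d2 encode the REV-ERB repressors of the second loop. Nr1d1 (ENSMUSG00000020889, chromosome 11, 98658752 to 98666188, minus strand) had 2655, 2506, 2681 and 2573 normalized counts in L192P and 2405, 2980, 2668 and 2662 in WT. The L192P libraries fell within the WT range, and the genotypes differed by -0.042 ± 0.07 (SE) on the log2 scale. Nr1d2 (ENSMUSG00000021775, chromosome 14, 4230545 to 4266624, plus strand) had 3909, 3116, 2932 and 3034 normalized counts in L192P and 3743, 3128, 3006 and 3239 in WT. Replicate 1 stood above the other 3 in either genotype. The genotypes differed by -0.013 ± 0.10 (SE) on the log2 scale, and the adjusted p from DESeq2 was 0.994. With total-count size factors that difference was 0.011 on the log2 scale.

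Dbp (ENSMUSG00000059824, chromosome 7, 45354512 to 45359627, plus strand), a direct output of the clock, had 1919, 1584, 1372 and 1271 normalized counts in L192P replicates 1 to 4. In WT replicates 1 to 4 it had 1822, 1735, 1448 and 1317. The values of both genotypes interleaved by number. The genotypes differed by -0.041 ± 0.13 (SE) on the log2 scale (95% interval -0.29 to 0.21), and the adjusted p from DESeq2 was 0.984. Over the 10 genes, the 95% intervals reached down to -0.50, for Per2, and up to 0.22, for Cry1.

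**Figure D3:**
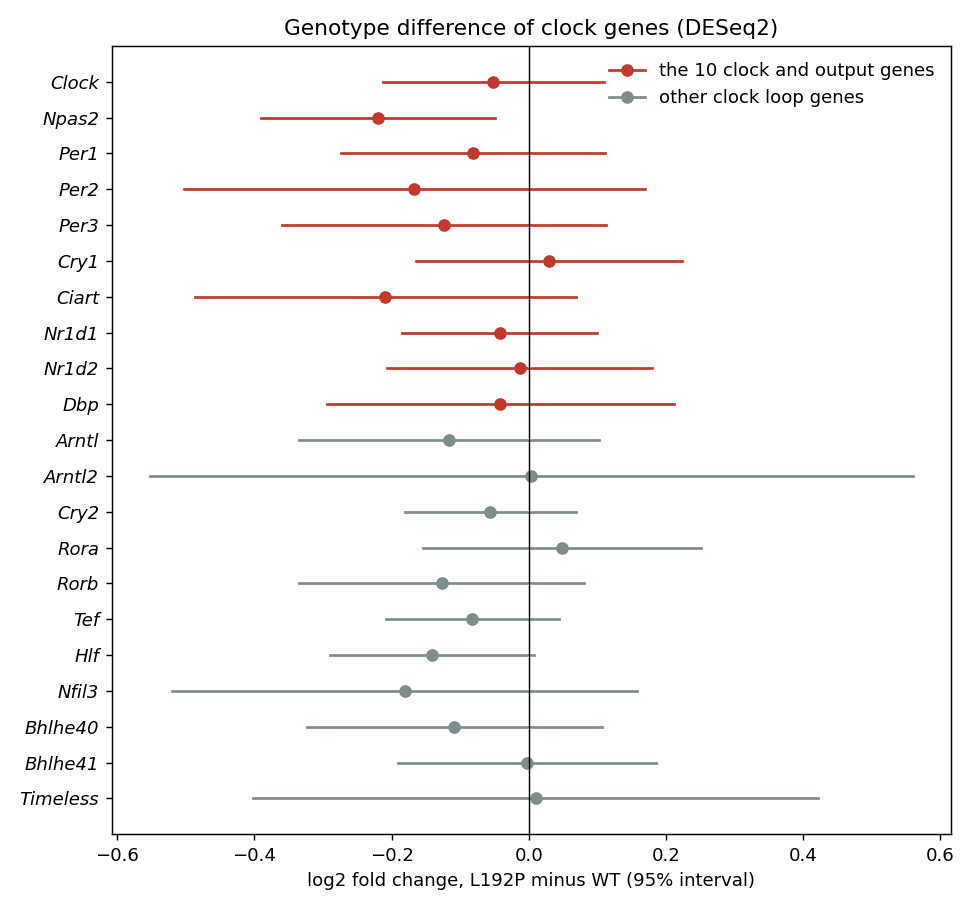
Log2 fold change, L192P minus WT, with its 95% interval (x axis) for the 10 clock and output genes and 11 other genes of the clock loops. All intervals include 0 except that of Npas2, which ends at -0.05.

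Other genes of the clock gave 0 calls as well, where 1.36% of all tested genes passed and 9.44% had an unadjusted p under 0.05. Of 11 further loop genes, Arntl, Arntl2, Cry2, Rora, Rorb, Tef, Hlf, Nfil3, Bhlhe40, Bhlhe41 and Timeless, 0 passed and 0 had an unadjusted p under 0.05 (DESeq2). Their median log2 fold change was -0.082, with 3 above 0 and 8 below. The largest at a mean of at least 50 normalized counts were those of Nfil3, a repressor of D-box motifs, at -0.18 ± 0.17 (SE), Hlf, a relative of Dbp, at -0.14 ± 0.08 (SE), and Rorb, a nuclear receptor, at -0.13 ± 0.11 (SE). Of 7 kinases, ubiquitin ligases and a deubiquitinase that act on clock proteins, Csnk1d, Csnk1e, Gsk3b, Fbxl21, Btrc, Fbxw11 and Usp2, 0 passed and 0 had an unadjusted p under 0.05 (median log2 fold change -0.010). Of 8 other rhythmic output genes, Wee1, Nampt, Lonrf3, Tspan4, Por, Rhobtb1, Dtx4 and Leo1, 0 passed and 1, Tspan4, had an unadjusted p under 0.05, with a log2 fold change of 0.27 (adjusted p = 0.419). edgeR (0.314% of all genes called) and limma voom (0.266%) called 0 of these 26 genes. Hlf passed without L192P replicate 1 (log2 fold change -0.21, DESeq2 adjusted p = 0.0439), where 1.61% of all tested genes passed. It also passed without both replicate 1 libraries (-0.20, DESeq2 adjusted p = 0.0393), where 3.46% passed. With all libraries the DESeq2 adjusted p of Hlf was 0.573.

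Sites for miRNAs are shown because the mutated protein is the one that carries them. For the same figure panel the study named miR-92-3p in its text and miR-29-3p in the legend, so both are shown. That panel concerned miRNAs enriched on the L192P protein, whereas miR-5121 was named among those de-enriched on it. In addition, miR-219 and miR-132 are known from the clock of the suprachiasmatic nucleus. The mature sequences of all these miRNAs, from RefSeq, are given with bases 2 to 8, the seed, in capitals.
mmu-miR-92a-3p: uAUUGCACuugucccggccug
mmu-miR-29a-3p: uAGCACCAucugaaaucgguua
mmu-miR-5121: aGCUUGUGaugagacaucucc
mmu-miR-219a-5p: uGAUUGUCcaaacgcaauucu
mmu-miR-132-3p: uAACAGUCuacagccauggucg
In the 3′ UTRs of the canonical transcripts, exact 7-base matches to these seeds were found for miR-92a-3p in Per2, for miR-29a-3p in Per1, Per3 and Clock and for miR-219a-5p and miR-132-3p in Clock. No member held a match to miR-5121. Over 20854 3′ UTRs of all lengths the share with a match was 6.95% for miR-92a-3p, 14.1% for miR-29a-3p, 9.57% for miR-5121, 5.05% for miR-219a-5p and 11.6% for miR-132-3p. Per3 had the most matches to miR-29a-3p, 3, and the sites of Per2 and Per3 are given as DNA with the match in capitals.
Per2 and miR-92a-3p, chr1:91343782-91343804, minus strand: ttcacccaGTGCAATatatttgt
Per3 and miR-29a-3p, chr4:151089797-151089819, minus strand: gtacagcaTGGTGCTtctcttcc
Per3 and miR-29a-3p, chr4:151089266-151089288, minus strand: tcactgtcTGGTGCTctggttta
Per3 and miR-29a-3p, chr4:151088549-151088571, minus strand: tttgaaaaTGGTGCTgtagtcag
The 4 genes with a match, Clock, Per1, Per2 and Per3, had log2 fold changes of -0.051, -0.081, -0.17 and -0.12, and none passed. The genes without a match, Npas2, Ciart, Nr1d1, Dbp, Nr1d2 and Cry1, had -0.22, -0.21, -0.042, -0.041, -0.013 and 0.030.

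The second question was how far the libraries of 1 genotype lay apart. The SD of log2 normalized counts within a genotype, pooled over both, was 0.33 for Per2, 0.24 for Dbp, 0.23 for Ciart and 0.20 for Per3. These lie at the percentiles 93.7, 85.3, 83.8 and 77.5 of 13422 genes with a mean of at least 50 normalized counts. The median was 0.16 for the 10 genes and 0.12 for all genes. The median percentile of the 10 genes was 67.4, and it was 53.0 among genes with a mean of at least 10 normalized counts. At the other end were Clock and Npas2 at 0.12 and Nr1d1 at 0.095, the percentile 32.5. Spread depends on abundance, and the dispersion of each gene was therefore also set against the DESeq2 trend at its level. This ratio was 5.73 for Per2 and 4.55 for Dbp, the percentiles 98.2 and 97.2, then 2.31 for Nr1d2, 1.99 for Ciart, 1.94 for Per3 and 1.88 for Per1. The median ratio was 1.91 for the 10 genes and 0.58 for all genes. Between the highest and the lowest of the 8 libraries, Per2 differed 1.87-fold, Ciart 1.60-fold, Dbp 1.51-fold and Nr1d1 1.24-fold.

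**Figure D4:**
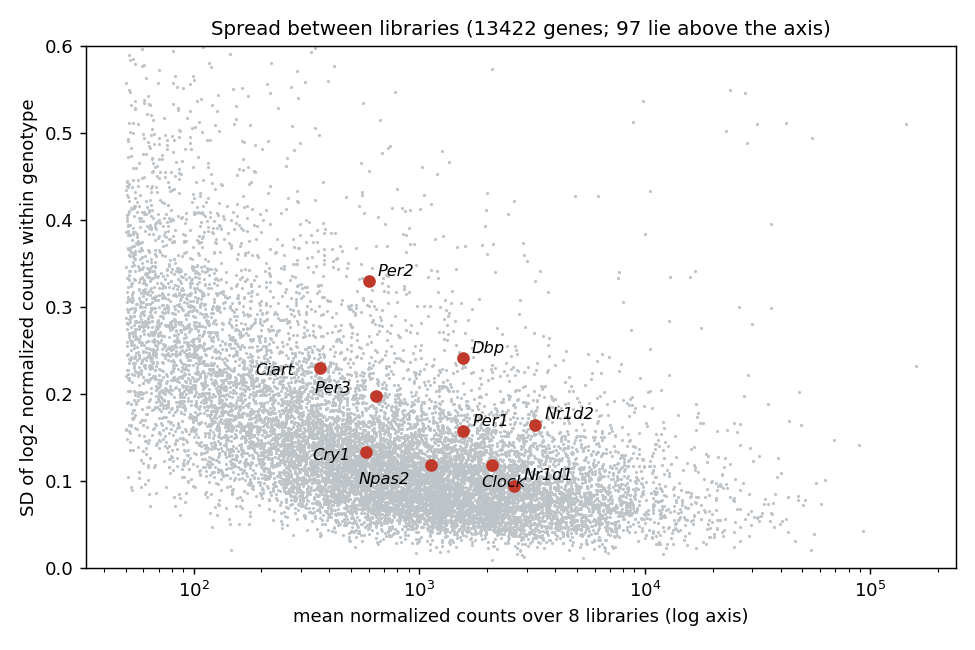
SD of log2 normalized counts within genotype (y axis) against the mean normalized count (log x axis) for 13422 genes in grey, of which 97 lie above the axis limit of 0.6, with the 10 clock and output genes in red. Per2 and Dbp sit above most genes of their abundance, whereas Clock, Npas2 and Nr1d1 lie within the bulk.

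Part of that spread was shared by libraries with the same replicate number. What the numbers in the labels stand for is not given there, and over all genes same-numbered libraries of both genotypes deviated together. Dbp took the same order of numbers in both genotypes, with replicate 1 highest and replicate 4 lowest, and so did Per2, with replicate 1 highest and replicate 3 lowest. This held for 2 of the 10 genes and for 9.25% of all genes with a mean of at least 50. For Per2 it rests on L192P replicates 3 and 4, which were nearly equal at 437 and 438 normalized counts. The number accounted for 95.7% of the sum of squares of log2 counts for Nr1d2, 95.5% for Dbp, 76.7% for Per2 and 73.8% for Ciart, but for 24.6% for Nr1d1. The median was 60.9% for the 10 genes and 52.6% for all genes, and genotype accounted for 52.6% for Npas2, the highest of the 10.

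A likelihood-ratio test of the number, with genotype in the model, was added after these values had been seen. It called 3 of the 10 genes by DESeq2, where 7.41% of 13757 tested genes were called. These were Dbp (adjusted p = 2.81e-06), Nr1d2 (0.000114) and Per2 (0.000517). By edgeR the same 3 genes were called, with adjusted p-values of 0.00473, 0.0162 and 0.0121 and a share of 4.81% of all genes. Ciart (0.123), Per3 (0.271), Npas2 (0.393), Clock (0.422), Per1 (0.426), Cry1 (0.857) and Nr1d1 (0.957) were not called by DESeq2. In replicate 1 the mean deviation from all 8 libraries was 0.42 on the log2 scale for Per2, 0.29 for Ciart, 0.28 for Dbp, 0.24 for Nr1d2 and 0.19 for Per3. It was -0.054 for Npas2, -0.061 for Nr1d1 and -0.092 for Per1.

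**Figure D5:**
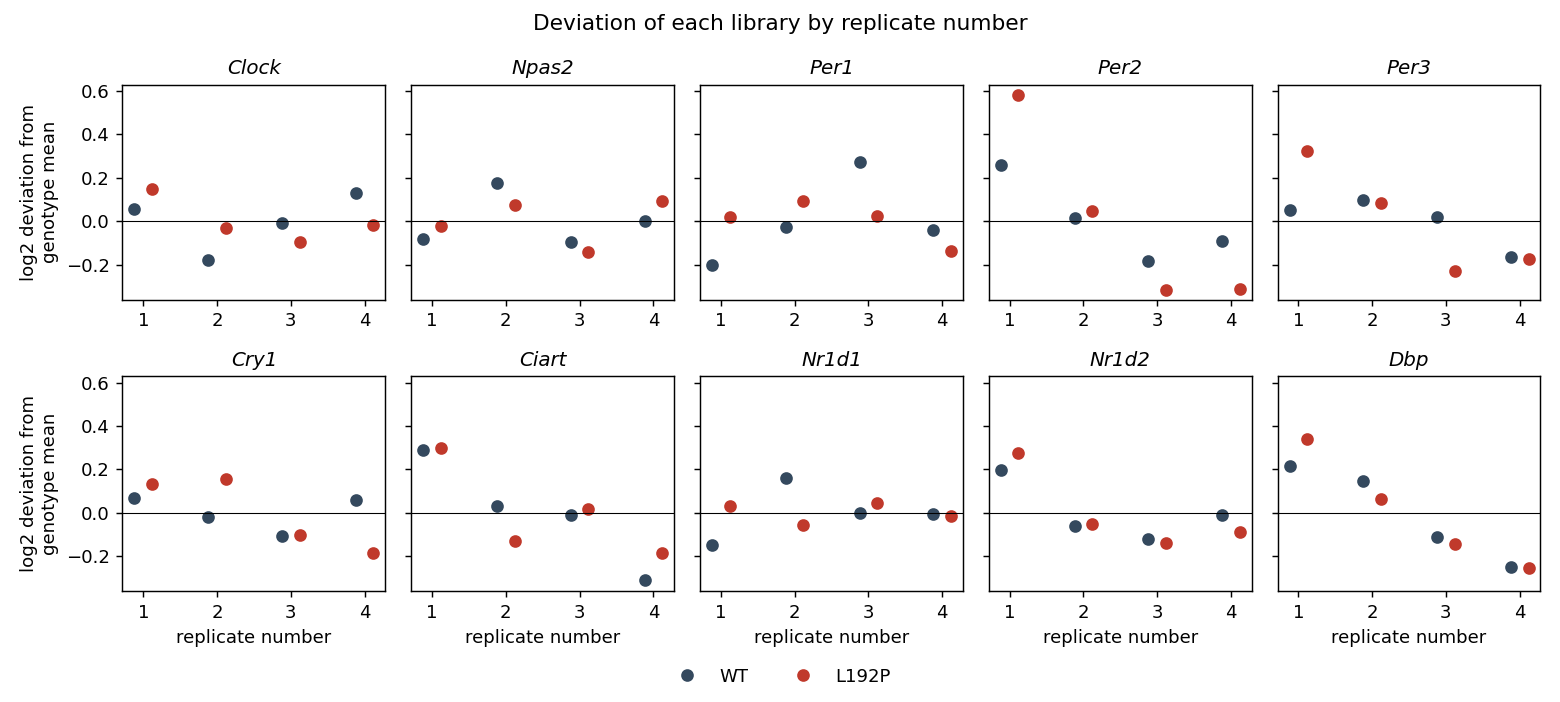
Deviation of each library from its genotype mean (y axis, log2 normalized counts) by replicate number (x axis, a label with no order) for the 10 genes. For Dbp and Nr1d2 the WT and L192P points of 1 number lie close together, whereas for Per1 and Nr1d1 they do not.

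The calls rested on replicate 1. Without both replicate 1 libraries 0 of the 10 genes were called (DESeq2, 1.04% of all genes), with an adjusted p of 0.0886 for Dbp and above 0.9 for the other 9. Without L192P replicate 1 alone, 1 gene was called (3.95% of all genes), Dbp (adjusted p = 0.0103), and Nr1d2 (0.238) and Per2 (0.458) were lost. Leaving out any other single library kept all 3.

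Other values moved with replicate 1 as well. Both replicate 1 libraries had almost no Xist, as given above, and the other 6 had it. Replicate 1 and the lack of Xist, and so a difference in sex, therefore cannot be told apart in these libraries. The oligodendrocyte markers Mbp, Mog, Mag, Mobp and Cnp summed to 40168 and 40241 normalized counts there against 53349 to 69220 in the other 6 libraries. The astrocyte markers Aldh1l1, Gfap, Aqp4, Slc1a3, Gja1 and Fgfr3 summed to 14805 and 16350 against 20612 to 23105, and the vascular and meningeal markers Cldn5, Pecam1, Flt1, Pdgfrb, Dcn and Col1a1 to 699.7 and 841 against 961 to 1508. Between the genotypes 0 of 5 oligodendrocyte markers, 0 of 6 astrocyte markers and 0 of 6 vascular and meningeal markers passed. The part of these differences in the clock values was not tested.

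In the other clock genes, the number test called 1 of 26 by DESeq2, where 7.41% of all tested genes were called. It was Nfil3 (DESeq2 adjusted p = 0.0445), which was not called by edgeR (0.0564) or in any of the 10 alternatives. Bhlhe40, a repressor that binds E-box motifs, was called without L192P replicate 1 (0.0444), where 3.95% of all tested genes were called. It was also called without WT replicate 1 (0.000746), where 3.69% were called, but not with all libraries (0.794). Bhlhe40 is named after its values were seen. Nfil3, which binds the same D-box motifs as DBP but represses, was lowest in replicate 1, at 245 (L192P) and 275 (WT) normalized counts against 316 to 465 in the other libraries. Arntl, chosen after its values had been seen, had its lowest libraries there too, 733 in L192P and 709 in WT against 765 to 1022, and was not called (0.400).

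Time of day would move the early and late genes of the loop apart. The mean centred log2 level of Per1, Per2, Per3, Nr1d1, Nr1d2, Dbp and Ciart minus that of Clock, Npas2 and Cry1 was 0.17, -0.07, -0.0025 and -0.14 in L192P replicates 1 to 4. In WT replicates 1 to 4 it was 0.091, 0.07, 0.061 and -0.18. Replicate 1 was highest and replicate 4 lowest in either genotype, and the mean was -0.011 ± 0.13 in L192P (SD, n = 4) and 0.011 ± 0.13 in WT. In replicate 1 the late genes Clock and Cry1 were also above their means, each by 0.10, and neither was called across the numbers. Of the temperature-linked genes Cirbp, Rbm3, Hspa1a, Hspa1b, Hspa8, Hsph1, Dnajb1 and Hsp90aa1, 0 of 8 passed between the genotypes (median log2 fold change 0.017). The largest differences were those of Hspa8 at -0.15, Cirbp at 0.14 and Hsp90aa1 at 0.11, and the list summed to 87815 to 93378 normalized counts in L192P and 88062 to 98004 in WT.

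Tissue outside the cortex can carry its own clock, and its markers were therefore read. Of 7 markers of the suprachiasmatic nucleus, the master clock of the hypothalamus, Nms and Six6 were near 0 in all libraries and were not tested. The other 5, Vip, Avp, Prokr2, Lhx1 and Rgs16, all had a log2 fold change above 0. Of them 1 passed, where 1.36% of all tested genes did. That gene was Avp, the vasopressin gene, which was higher in L192P (log2 fold change 4.22, DESeq2 adjusted p = 0.000155). It had 329, 19.3, 459 and 220 normalized counts in L192P replicates 1 to 4 and 10.5 to 21.9 in WT, so the groups overlapped. Lhx1, named after its values were seen, had a log2 fold change of 2.40 (DESeq2 adjusted p = 0.0644), with at most 45.0 normalized counts in a library. The 7 markers summed to 1298 to 1973 normalized counts in L192P and 1221 to 1430 in WT. Of these sums Vip held 855 to 1197 counts in L192P and 880 to 1083 in WT (log2 fold change 0.0054). Whether cells of the cortex express these markers was not checked, so the sums do not place suprachiasmatic tissue in any library. Choroid plexus markers (Ttr, Folr1, Kl, Kcnj13, Clic6 and Otx2) ranged from 16605 to 38173 in L192P and from 14342 to 32547 in WT, and 0 of 6 passed. Blood markers (Hbb-bs, Hbb-bt, Hba-a1, Hba-a2 and Alas2) ranged from 1374 to 3230 in L192P and from 1543 to 2371 in WT, and 0 of 5 passed. Their part in the clock values was not tested.

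The genes with a pattern most like that of Dbp over the 8 libraries were Spata6l, Mettl27, Ctu2, Nme6 and 2900079G21Rik. Their mean absolute difference from Dbp in centred log2 counts was 0.063, 0.063, 0.064, 0.065 and 0.070. Mettl27, for example, had 227, 179.8, 165 and 165 normalized counts in L192P replicates 1 to 4 and 219, 202, 158 and 143 in WT. For Npas2 the nearest were Tkfc, Ptpn5, E2f1, Lpcat4 and Pld3, at 0.029, 0.033, 0.034, 0.037 and 0.039. Ptpn5, the gene of a phosphatase that is abundant in striatal neurons, had 5800, 5985, 5159 and 6183 normalized counts in L192P and 6660, 7059, 6232 and 6652 in WT. None of these 10 genes was another member of the set.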

How the data were processed

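Total RNA of cerebral cortex was sequenced from 4 L192P and 4 WT libraries. The kit was TruSeq Stranded mRNA per the labels, whereas the study's methods name another Illumina stranded mRNA kit. The authors deposited whole-number counts of reads per gene, made by alignment to GRCm39 with STAR and counting with featureCounts 1.5.1. The STAR release is 2.7.9a in the submitters' processing notes and differs in the methods. The annotation release and the strand option of the counting are not given in the sources used here. The deposited normalized table was not used. Totals ran from 20396357 to 43575900 counts, and counts were at least 245 for every clock gene in every library. The number of libraries, not depth, sets the precision.

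Counts of all 55416 genes were fitted with DESeq2 1.42.0 (R 4.3.3), with a single term for genotype and size factors by the median-of-ratios method. A call needed an adjusted p (Benjamini-Hochberg) under 0.05, whatever the fold change, with independent filtering at 0.05. Normalized counts are counts divided by these factors. Log2 values used a pseudocount of 1, and spread was read in genes with a mean of at least 50. The replicate number was tested by a DESeq2 likelihood-ratio test and by edgeR 4.0.16. Alternatives used edgeR, voom in limma 3.58.1, TMM or total-count factors, a filter of 10 counts in 4 libraries, a replicate block and left-out libraries. The genotype fits were tested on simulated data drawn without an effect shared by same-numbered libraries. That simulation did not cover such an effect or the test of the replicate number.

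The replicate numbers in the labels were checked for pairing over 13422 genes. Deviations from the genotype mean correlated at 0.63, 0.38, 0.23 and 0.33 for same-numbered libraries and at -0.38 to 0.14 for the 12 other pairs. The main fit held genotype only, so its intervals and p-values leave out this pairing. The pairing entered the fits with a replicate block and the test of the replicate number. No 2 libraries of a genotype agreed within sampling noise. Nothing says that libraries came from separate animals, so p-values measure only the spread between them.

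The 10 genes and all lists were chosen with earlier results of these data known. Some genes of the lists are not reported here and were left out of every list count, median and sum. The genes named were the 10 members, every gene of another list that passed or else up to 3 with the largest absolute log2 fold change at a mean of at least 50, and the 5 genes nearest to Dbp and to Npas2. Promoters, gene positions and 3′ UTRs were read from GRCm39 with GENCODE M39, and mature miRNAs from RefSeq (GRCm38.p6).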

Additional observations from a re-analysis of the deposited data

Results flagged for a closer look

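In WT the difference between the early and late clock genes was 0.091, 0.07, 0.061 and -0.18 in replicates 1 to 4, and WT replicate 4 stood apart. Its gap to the nearest library was 0.887 of the whole range, above Dixon's 95% limit for 4 samples. Of 22 groups of 4 libraries screened, 1 met this limit, and chance gives 1.1. In that library Dbp (1317 normalized counts) and Ciart (310 normalized counts) were at their lowest in WT and Clock (2345 normalized counts) at its highest.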

How the results depend on the processing

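The number of the 10 clock genes called between genotypes was 0 in all 17 alternatives. With the replicate block, which uses the pairing, it was also 0, and the block changed no other call on the clock genes. The count of all genes called, 253, was 533 with that block in DESeq2 and 513 with it in edgeR. It was 53 by edgeR without the block, 45 by limma voom and 500 without both replicate 1 libraries. Leaving out 1 library gave 112 (WT replicate 4) to 496 (WT replicate 1), with 156, 126 and 157 without L192P replicates 2, 3 and 4 and 114 and 127 without WT replicates 2 and 3. Of the 26 other clock genes 1, Hlf, was called without both replicate 1 libraries, and leaving out 1 library gave 0 to 1, the 1 being Hlf without L192P replicate 1.

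The direction turned for Nr1d2 with total-count size factors (0.011 on the log2 scale). Leaving out 1 library gave -0.15 to 0.016 for Per1, -0.023 to 0.088 for Cry1, -0.092 to 0.013 for Nr1d1, -0.12 to 0.056 for Nr1d2 and -0.17 to 0.040 for Dbp. The other genes kept their direction, at -0.40 to -0.061 for Per2, -0.25 to -0.048 for Per3, -0.32 to -0.11 for Ciart, -0.11 to -0.0087 for Clock and -0.25 to -0.16 for Npas2. The cause was not tested. For the replicate number, the 3 calls became 0 without both replicate 1 libraries and 1 to 3 without 1 library (1 without L192P replicate 1). Among other clock genes the 1 call, Nfil3, was lost in all 10 alternatives, and their count was 0 by edgeR, 0 without both replicate 1 libraries and 0 to 1 without 1 library, the 1 being Bhlhe40 without replicate 1 of either genotype.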
